A study of Homo sapiens with 2 samples.

Results

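Peaks of open chromatin on contigs outside the assembled human chromosomes, or in gene-free stretches of the chromosomes, made up 331 of the 4428 peaks called in this study. They were 140 of 2010 in the control library and 191 of 2418 in the knockdown library. They were chosen by position alone. A peak belonged to the set if it lay on a contig that is not one of the assembled chromosomes (unlocalised, unplaced or alternate), or wholly within a stretch of at least 1 Mb of chromosomes 1 to 22 or X that holds no annotated RefSeq gene of any type. Contigs gave 62 control and 79 knockdown peaks, and gene-free stretches gave 78 and 112.

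The study used ATAC-seq, in which a transposase inserts sequencing adapters into accessible DNA, on C42 cells (C4-2), a human prostate cancer line that descends from LNCaP and grows without androgen. One library came from control cells (labelled CTR, with shCTR named as the treatment), and 1 from cells carrying a short hairpin RNA against WHSC1 (shWHSC1), also called NSD2, a histone H3 lysine methyltransferase. Both were grown in RPMI with serum, and neither the hairpin sequence nor the degree of knockdown was analysed here. With 1 library a group there is no replicate error and no test, and each comparison is between these 2 libraries. The files hold peak calls and no read counts, so read depth is unknown. Intervals are 95% exact intervals (Clopper-Pearson for shares, order statistics for medians) and cover the counting of peaks only. Neighbouring peaks in 1 repeat array are not independent.

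Human centromeres are built of alpha satellite, a short unit repeated head to tail over very long arrays, and are flanked by blocks of other satellite repeats. Ribosomal DNA, which encodes the 45S precursor of the ribosomal RNAs, also lies in long tandem arrays, on the short arms of the acrocentric chromosomes. The assembly holds fewer copies of such repeats than a cell does, and some copies stand on contigs with no known place. Reads from many copies can therefore pile up on one, and a read that fits several places equally may be put on the wrong one, so a peak here describes a sequence family more than a single locus. Neither repeat annotation nor genome sequence was used here, and which satellite a peak lies in was not determined.

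By position, the label of centromeric stretches holds for nearly all of the stretch peaks, and it was not checked for the 141 contig peaks. Of 30 gene-free stretches of at least 1 Mb, 18 held a peak, and 16 of these lie at or beside a centromere by the known layout of the chromosomes. The other 2 are gene deserts in the long arms of chromosomes 4 and 6, which held 0 control peaks and 2 knockdown peaks. Of the stretches, 11 held peaks of both libraries, 2 control peaks only and 5 knockdown peaks only. Peaks lay on 39 contigs: 28 with peaks of both libraries, 3 with control peaks only and 8 with knockdown peaks only. By kind, 26 contigs were unplaced (42 control and 51 knockdown peaks), 12 were unlocalised on a known chromosome (20 and 27), and 1 was an alternate contig with 1 knockdown peak.

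The set held the strongest peaks of both lists. Ranked by fold enrichment (read pileup relative to a local background, as written by the authors' peak caller for each library separately), 17 of the top 20 control peaks and 16 of the top 20 knockdown peaks were on contigs or in gene-free stretches. Of the top 100, 44 and 46 were. The set was 6.97% of the control list (interval 5.89 to 8.17%) and 7.90% of the knockdown list (6.85 to 9.05%). Among control peaks with a −log10 q of at least 5, 61 of 191 belonged to it. In the knockdown it was 73 of 239. Put the other way, 43.6% of the control set and 38.2% of the knockdown set reached that strength, where 9.5% of all control peaks and 9.88% of all knockdown peaks did. The median fold was 4.13 in the control set (interval 3.80 to 4.47) and 3.57 for control peaks elsewhere (interval 3.55 to 3.59). In the knockdown it was 3.97 (interval 3.78 to 4.09) against 3.44 (interval 3.42 to 3.46).

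The peaks were also wide. The median width of control peaks was 757.5 bp (interval 679 to 983), and that of knockdown peaks was 866 bp (752 to 990), where peaks elsewhere had medians of 351 bp and 350 bp. A width of at least 1 kb was reached by 56 of the 140 control peaks (40.0%) and 80 of the 191 knockdown peaks (41.9%), and by 2.94% and 3.73% of the peaks elsewhere. The set covered 167 kb of the 982 kb under control peaks, and 219 kb of the 1210 kb under knockdown peaks. Width ranged from 234 to 5923 bp in the control and from 205 to 5870 bp in the knockdown. The widest peaks of both lists lay elsewhere, where width ranged from 209 to 8796 bp and from 202 to 16368 bp. Across the peaks of the set, width and fold had a Spearman rho of 0.10 and 0.21, a description only, since the peaks of a list share their library.

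**Figure D1:**
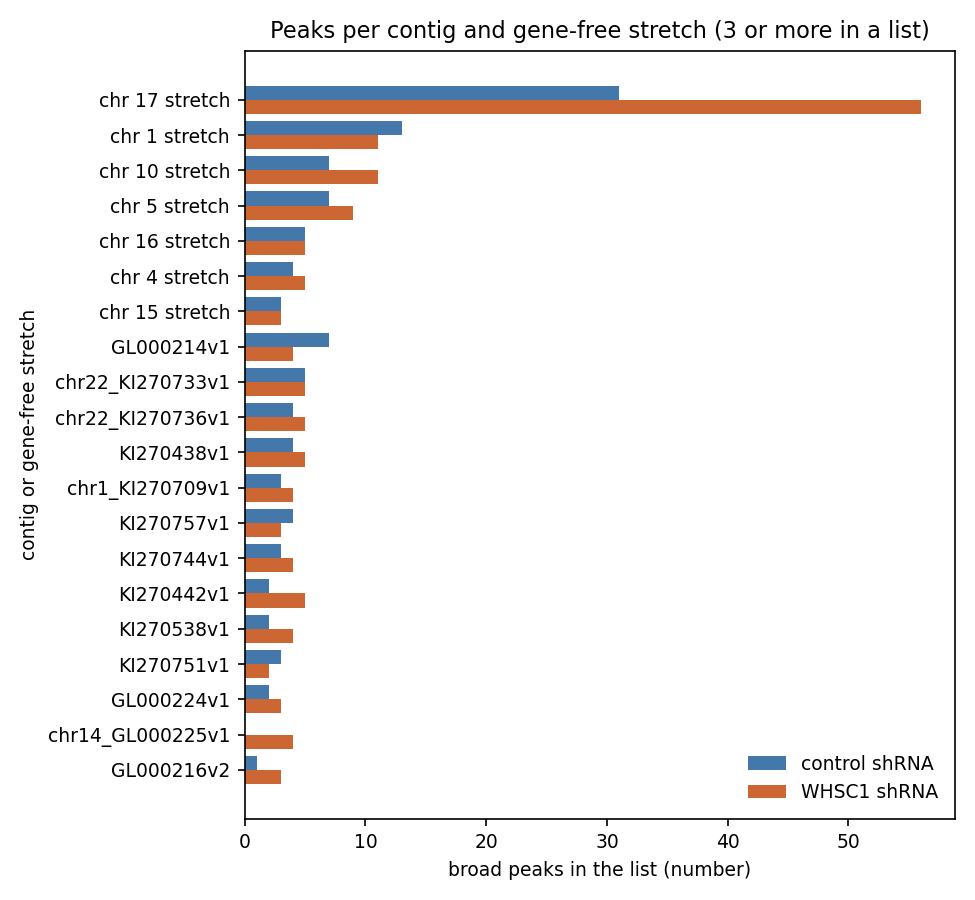
Number of broad peaks (x axis) on each contig or gene-free stretch with at least 3 peaks in a list (y axis), with 1 bar per library. The chromosome 17 stretch stands out with 31 control and 56 knockdown peaks, and the other bars end at 13 or below.

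The knockdown list held more peaks of this kind, and the chromosome 17 stretch held the most of any place in both lists. Knockdown peaks outnumbered control peaks by a ratio of 1.36 (interval 1.09 to 1.71), and 1.19 for all peaks elsewhere (interval 1.12 to 1.27), so the intervals overlap. In the chromosome 17 stretch it was 1.81 (56 against 31 peaks, interval 1.14 to 2.90). Without the chromosome 17 stretch it was 1.24 (135 against 109 peaks, interval 0.955 to 1.61). On contigs it was 1.27 (interval 0.902 to 1.81), and in the stretches other than chromosome 17 it was 1.19 (56 against 47 peaks, interval 0.794 to 1.79). Among peaks reaching a −log10 q of 5, the set's ratio was 1.20 (73 against 61 peaks, interval 0.840 to 1.71). Elsewhere 166 knockdown peaks and 130 control peaks reached it, so at this strength the set's excess was no larger than elsewhere. With the knockdown list cut to the length of the control list the set's ratio was 1.24 (interval 0.983 to 1.56). The cut makes the counts of all peaks equal by construction, and the set was then 6.97% of the control list and 8.61% of the knockdown list. Read depth, which bears on the number of calls, is unknown for both libraries, and its part in these ratios was not tested.

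Most control peaks of the set were called again in the knockdown library. An overlap of at least 1 bp was found for 116 of the 140 control peaks (82.9%, interval 75.6 to 88.7%), where 54.1% of all control peaks had one. In the other direction it was 113 of the 191 knockdown peaks (59.2%, interval 51.8 to 66.2%), where 44.7% of all knockdown peaks had one. Peaks outside the set gave 51.9% and 43.4%. Strength differs between the set and the rest, so the shares were also read at like −log10 q. In 6 steps of −log10 q, the matched share of control peaks was higher in the set than elsewhere in 5 and lower in 1. Between 2 and 3, for example, it was 13 of 15 (86.7%, interval 59.5 to 98.3%) against 60.7% of 501 elsewhere, and between 3 and 5 it was 22 of 27 (81.5%) against 78.2% of 330. In the knockdown it was lower in the set in 5 steps and higher in 1. Between 2 and 3 it was 17 of 41 (41.5%, interval 26.3 to 57.9%) against 48.0% of 612, and between 3 and 5 it was 22 of 40 (55.0%, interval 38.5 to 70.7%) against 68.8% of 430. Of the peaks of the set with a −log10 q of at least 10, 42 of 43 in the control and 40 of 42 in the knockdown were matched. Elsewhere all peaks of that strength were matched, 16 of 16 in the control and 21 of 21 in the knockdown.

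Where both libraries had a peak, the calls mostly covered much the same interval, though some pairs overlapped little. Of matched peaks, 108 pairs in the set and 963 elsewhere had 1 partner each. The overlap was a median of 85.8% of the combined interval in the set and 63.9% elsewhere, and the starts differed by a median of 43 bp and 77 bp. The set's pairs were wider, with medians of 952.5 bp (control) and 1048 bp (knockdown) against 414 bp and 444 bp elsewhere. A given offset takes a smaller share of a wide interval, and the overlap was not compared at like width. A start or an end was shared to the base by 17 of the 108 pairs (15.7%, interval 9.45 to 24.0%) and by 36 of the 963 pairs elsewhere (3.74%, interval 2.63 to 5.14%). The fold of the 2 libraries was ordered alike across these pairs, with a Spearman rho of 0.89 in the set and 0.45 elsewhere. The set spans a wider range of folds, which by itself raises such a value. In bases, 138 kb were covered by the set's peaks in both libraries, which is 82.9% of the sequence under its control peaks and 63.2% of that under its knockdown peaks. The pairs had a median fold of 4.42 (control) and 4.38 (knockdown), and the knockdown fold was the higher in 59 of the 108 pairs. The authors' folds are relative to each library's own background and were not scaled between libraries.

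**Figure D2:**
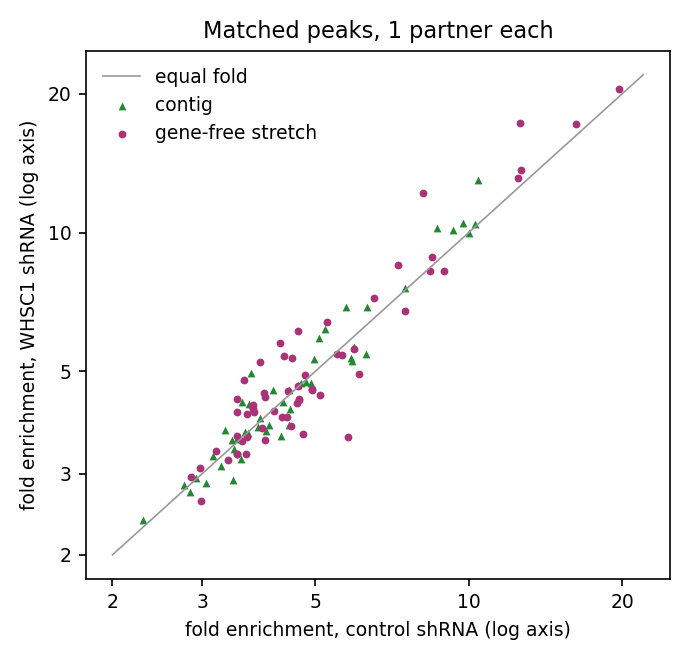
Fold enrichment of the 108 matched pairs with 1 partner each, control on the x axis and knockdown on the y axis (both log axes), with 1 point per pair and a line of equal fold. Points lie along the line up to the chromosome 3 peak at 19.7-fold and 20.5-fold, and 59 of the 108 lie above it.

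The strongest peak of both lists lay in the gene-free stretch of chromosome 3 between LOC101930420 and RNU6-488P. It ran from 93470358 to 93470793 in the control (GRCh38), with 19.7-fold enrichment and a −log10 q of 2055. In the knockdown it began at the same base and ended 1 bp further, at 93470794, with 20.5-fold enrichment and a −log10 q of 1976. The other peak of this stretch, near 91548310, was weaker, with 4.34-fold enrichment (control) and 5.40-fold (knockdown). Of the 10 matched peaks with the highest control fold, 5 lay in stretches, this one on chromosome 3 and 4 on chromosome 17, and 5 lay on unplaced contigs.

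The chromosome 17 stretch, between the WEE1 pseudogene WEE1P2 and LOC100422478, was the most crowded. Its 31 control peaks and 56 knockdown peaks were spread over most of its 4.28 Mb, with a median gap of 90.0 kb between neighbouring control peaks and 32.6 kb between knockdown peaks. Its strongest peaks began within 3 bp of each other in both libraries. The one from 25920062 to 25920370 had the same first and last base in both, and its fold was 16.2 (control) and 17.2 (knockdown). The peak at 26603692 began at the same base in both, with 12.7-fold and 13.7-fold enrichment. The peak at 26619470 had 12.5-fold enrichment in the control, and its knockdown partner at 26619468 had 13.1-fold. At 23016264 the control had 12.6-fold enrichment, and the partner at 23016261 had 17.3-fold. All 4 were among the 10 matched peaks of the set with the highest control fold.

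The unmatched knockdown peaks of this stretch were weaker than those sites. Of the 56 knockdown peaks, 28 had no control partner, a share below that of the whole knockdown list (1338 of 2418), with a median fold of 3.92 and a maximum of 7.05, and 13 of the 28 were at least 1 kb wide. The 3 unmatched control peaks had a median fold of 3.71 and a maximum of 4.38. In steps of 0.5 Mb, knockdown peaks outnumbered control peaks by at least 4 from 23 to 23.5 Mb (6 against 2), from 24 to 24.5 Mb (11 against 4), from 25 to 25.5 Mb (11 against 6) and from 25.5 to 26 Mb (10 against 5). Between 24.5 and 25 Mb both lists held 9 peaks, of which 7 were matched in each.

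**Figure D3:**
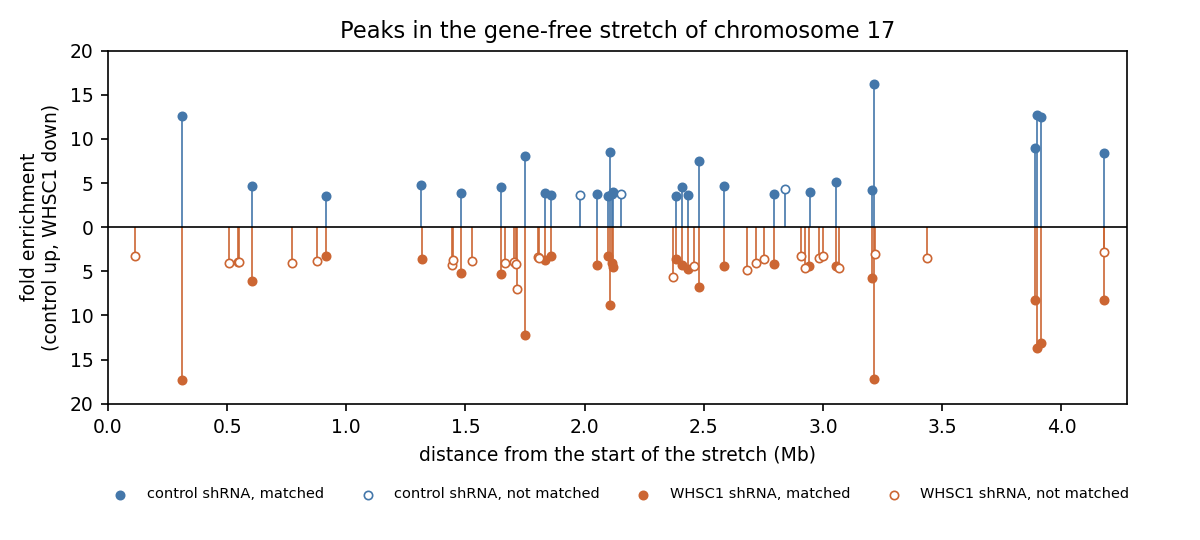
Peaks along the gene-free stretch of chromosome 17, by distance from its start in Mb (x axis) and fold enrichment (y axis, control upward and knockdown downward), with open circles for peaks that no peak of the other library overlaps. The tall peaks, up to 16.2-fold and 17.3-fold, stand at the same places in both libraries, and the 28 open knockdown circles reach 7.05-fold at most.

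On chromosome 1 the peaks were wide and all shared. The stretch from EMBP1, a pseudogene of embigin, to LOC101929814 is the longest of all, 21.7 Mb. It held 13 control and 11 knockdown peaks, and each overlapped a peak of the other list. One stood alone at 125179082 (control 5.51-fold, knockdown 5.45-fold). The other 12 control and 10 knockdown peaks formed a row of 82.1 kb, from 143184662 to 143266733, at the long-arm end of the stretch. The median width in the stretch was 2559 bp and 3016 bp, and its peaks covered 34.5 kb (control) and 35.9 kb (knockdown). The folds were moderate, 3.44 to 5.97 for control peaks and 3.56 to 5.59 for knockdown peaks. One knockdown peak of 5870 bp, at 143250460, overlapped 3 control peaks, and every other peak of the stretch had 1 partner.

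The chromosome 16 stretch, between LOC101929923 and the pseudogene ANKRD26P1, had all of its peaks in 20.8 kb at its long-arm end, from 46380730 to 46401577. Each library had 5 peaks there, and all had a −log10 q above 20. The pair at 46380730 had the highest fold, 6.52 (control) and 7.21 (knockdown), and the other peaks ranged from 2.25-fold to 4.10-fold. The control peak from 46389639 to 46391377 had 4.10-fold enrichment with a −log10 q of 254.5, and the knockdown peak from 46387816 to the same last base, which overlapped a second control peak, had 3.83-fold with 227.3. A second pair ended at base 46395035 in both libraries, with 3.20-fold and 3.36-fold enrichment and −log10 q of 130.2 and 151.0. The peak at 46386371 was called in the knockdown alone (2.31-fold, −log10 q 46.1), and it had the highest −log10 q of the knockdown peaks of the set with no partner.

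High significance at low fold was seen at several of these places. Among control peaks of 4-fold to 5-fold enrichment, −log10 q reached 254.5 in the set and 29.3 elsewhere, with like medians of 4.44 and 4.08. In the knockdown it reached 221.3 and 17.9, with medians of 4.25 and 4.61. Among control peaks of 3.5-fold to 4-fold enrichment the order was the other way, with maxima of 15.7 in the set and 91.3 elsewhere. In the knockdown at those folds the maxima were 227.3 in the set and 16.9 elsewhere. The values of 29.3, 17.9 and 91.3 elsewhere all came from a gene-free stretch of 0.546 Mb on chromosome 16. That stretch is too short for the 1 Mb rule, so high significance at low fold was not particular to the set. Of the 11 control peaks with a −log10 q of at least 100, 9 belonged to the set, at folds from 3.20 to 19.7, and so did 10 of the 11 knockdown peaks, at 3.36 to 20.5. The remaining peaks were on the mitochondrial genome. In the chromosome 17 stretch fold and −log10 q gave nearly the same order, with a Spearman rho of 1.00 (control) and 0.97 (knockdown). In the other stretches it was 0.49 and 0.64, on contigs 0.79 and 0.78, and for peaks elsewhere 0.85 and 0.87.

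**Figure D4:**
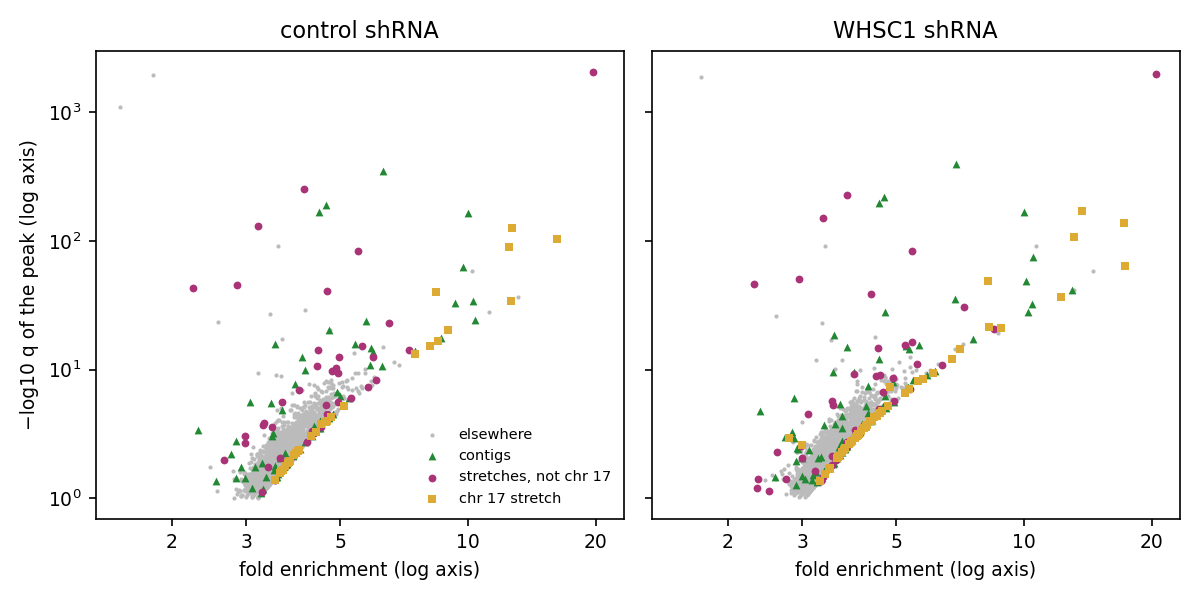
Fold enrichment (x axis) against −log10 q (y axis) for each peak of the control list (left) and knockdown list (right), both log axes, with peaks elsewhere in grey. Most chromosome 17 peaks run along the lower edge of the cloud, while many contig peaks and peaks of other stretches rise above it, some to −log10 q values over 100 at folds near 3 to 5.

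Other stretches with at least 5 peaks in a list included those of chromosomes 10 and 4. On chromosome 10, between the pseudogenes CHEK2P5 and KSR1P1, there were 7 control and 11 knockdown peaks, 5 of each matched. A row of 45.6 kb there, from 41869456 to 41915052, held 3 control and 8 knockdown peaks, with folds from 2.34 to 3.99 in the knockdown. On chromosome 4, between SNX18P25 and DCUN1D4, a cullin neddylation factor gene, there were 4 and 5 peaks, and all 4 control peaks were matched. Its strongest, at 50555812, had 7.25-fold enrichment, and the knockdown partner at 50556031 had 8.50-fold. The stretch of chromosome 6 between RBBP4P4 and PRIM2BP had 2 knockdown peaks (3.53-fold and 3.63-fold) and no control peak.

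The contig peaks with the highest control fold stood on unplaced contigs. By −log10 q the highest was on chrUn_KI270467v1. There the control peak had a −log10 q of 351.1 at 6.31-fold, and the knockdown peak 394.8 at 6.90-fold. Both ended at base 3797. On chrUn_KI270466v1 the control fold was 10.0 and the knockdown fold 9.99. On chrUn_KI270337v1 it was 10.3 and 10.4, and on chrUn_GL000216v2 9.74 and 10.5. Those 3 peaks began within 250 bases of the first base of their contig, as did 5 of the 62 control and 5 of the 79 knockdown contig peaks in all. Of the 39 contigs, 12 had exactly 1 peak in each library.

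The contigs with at least 5 peaks in a list did not all lean to the knockdown. chrUn_GL000214v1 had 7 control and 4 knockdown peaks, and all 4 knockdown peaks were matched. One of its unmatched control peaks, from 120882 to 121131, had 5.41-fold enrichment and a −log10 q of 15.9, the highest among control peaks of the set with no partner. chrUn_KI270442v1 leaned the other way, with 2 control and 5 knockdown peaks, 1 of each matched. chrUn_KI270438v1 had 4 and 5 peaks, 2 of them with −log10 q above 100 in each library. Of these, the peak that began at base 103893 in both libraries had 4.62-fold and 4.67-fold enrichment. chr22_KI270736v1_random had 4 and 5 peaks, and all 4 control peaks were matched. Without any control peak were chr14_GL000225v1_random, with 4 knockdown peaks of 2.59-fold to 4.92-fold, and chr1_KI270712v1_random, with 2 of 3.72-fold and 3.90-fold.

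Ribosomal DNA stands on 2 of the contigs. The gene table lists the 45S copies RNA45SN4 and RNA45SN5 with contig positions but without the contig's name, and they were placed on chr22_KI270733v1_random and chrUn_GL000220v1 from general knowledge of the assembly. In every copy the 18S, 5.8S and 28S genes follow each other at rising positions, so the copies read toward higher positions. Each library had 7 peaks on these contigs, 5 on the first and 2 on the second. They lay past the 28S gene of the annotated copy or over its end. The furthest on chr22_KI270733v1_random also lay past the pseudogenes RNA18SP4 and RNA5-8SP9. The peak start nearest to the start of an annotated 45S gene, where transcription by RNA polymerase I begins, was 12.8 kb away. That distance leaves out the 18S pseudogenes further along, which have no annotated 45S start. The nearest peaks before RNA18SP4 ended 8197 bp (control) and 5787 bp (knockdown) short of it. Before RNA18SP3 on chrUn_GL000220v1 it was 9837 bp and 9832 bp.

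A peak stood near the downstream end of both contig copies. Beside RNA45SN5 (105424 to 118780 on chrUn_GL000220v1) it began 979 bp past the gene's end in the control, with 10.4-fold enrichment, and 973 bp past it in the knockdown, with 13.0-fold. Over RNA45SN4 (122273 to 135645 on chr22_KI270733v1_random) it spanned the gene's end and the last part of RNA28SN4, and its fold was 5.88 (control) and 5.36 (knockdown). The copy on chromosome 21, RNA45SN2, which is not on a contig or in a gene-free stretch, had its peak 340 bp past the end in the control and 332 bp past it in the knockdown. That peak's fold was 13.1 (control) and 14.6 (knockdown), higher than at both contig copies. Of the 5 annotated 45S copies, 3 thus carried a called peak at this end in both libraries. RNA45SN1 and RNA45SN3, also on chromosome 21, had none there, and the nearest peak past RNA45SN3 began 17.8 kb (control) and 17.7 kb (knockdown) from its end.

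Deeper in the spacer between copies, a peak began 14.8 kb past the end of RNA45SN4 in both libraries (3.43-fold and 3.55-fold), and one began 14.8 kb past the end of RNA45SN2 (10.2-fold and 10.7-fold). On chrUn_GL000220v1 the second peak stood 23.9 kb past the end of RNA45SN5 in the control and 24.0 kb past it in the knockdown, with 9.31-fold and 10.1-fold enrichment. On chr22_KI270733v1_random, a control peak 5.93 kb past the gene had 3.59-fold enrichment, and its partner had 4.28-fold. Beyond that spacer, past RNA18SP4, a peak began at the same base in both libraries. It stood 980 bp past the 5.8S pseudogene RNA5-8SP9, with 7.50-fold and 7.60-fold enrichment. The remaining peak of each library on this contig was unmatched, at 162084 in the control (4.70-fold) and at 164480 in the knockdown (4.37-fold). Reads of these copies can be exchanged among all of them, so the split of enrichment between copies is uncertain.

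**Figure D5:**
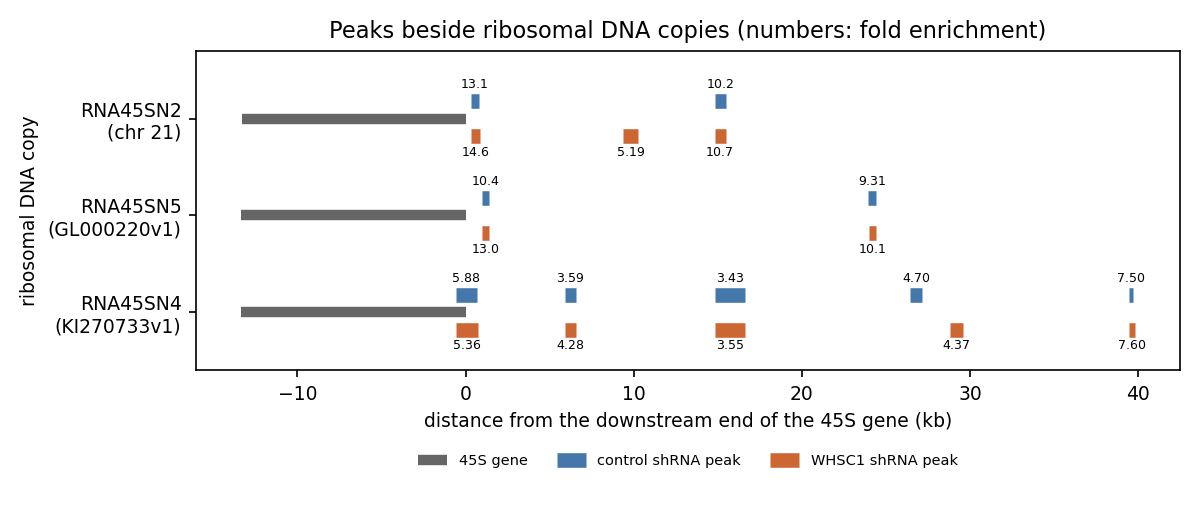
Peaks beside 3 ribosomal DNA copies, by distance in kb from the downstream end of the 45S gene (x axis), with the gene as a grey bar, control peaks above it and knockdown peaks below, and the fold enrichment printed at each peak. Each of these 3 has a peak of both libraries near 0 kb, and RNA45SN2 and RNA45SN4 both have one at 14.8 kb.

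The peaks of the set with no partner were weaker than its matched peaks and more numerous in the knockdown list. There were 24 in the control and 78 in the knockdown, beside 923 of all 2010 control peaks and 1338 of all 2418 knockdown peaks. By place, 14 and 31 were on contigs, 3 and 28 in the chromosome 17 stretch, and 7 and 19 in other stretches. Their median fold was 3.61 in both libraries, where matched peaks of the set had 4.34 (control) and 4.37 (knockdown) and all peaks had 3.59 and 3.46, and the median −log10 q of the control ones was 1.78 (interval 1.44 to 2.75), against 2.46 (1.89 to 2.80) for the knockdown ones. None of the 24 control peaks was 1 kb wide (the widest was 960 bp), while 20 of the 78 knockdown peaks were. Elsewhere, 5 of the 130 control peaks and 10 of the 166 knockdown peaks with a −log10 q of at least 5 had no partner. In the set it was 1 of 61 control peaks and 6 of 73 knockdown peaks. Beside the knockdown peak at 46386371 on chromosome 16, the strongest of the latter were on chromosome 17, at 24421361 (7.05-fold), 25074348 (5.61-fold) and 25388241 (4.84-fold), and on chr14_GL000225v1_random at 99233 (4.92-fold). In the control, the 4 that followed the chrUn_GL000214v1 peak had folds of 4.48 to 4.70 and lay on chromosomes 7 and 10, chr22_KI270733v1_random and chr14_KI270724v1_random. Where a peak had no partner, the other library had no call there, and its signal was not measured.

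The members just inside it were 1 knockdown peak in a stretch of 1.08 Mb on chromosome 6 (102870498 to 102870759, 3.31-fold, next to the pseudogene TARDBPP5) and 1 in a stretch of 1.28 Mb on chromosome 4 (180030196 to 180030443, 3.32-fold). Just outside were 1 knockdown peak in a stretch of 0.993 Mb on chromosome 1 (3.10-fold) and a matched pair in a stretch of 0.948 Mb on chromosome 3, beside the centromere (control 4.29-fold, knockdown 3.51-fold). Stretches of 0.5 to 1 Mb held 21 control peaks with a median fold of 3.44 and 24 knockdown peaks with a median fold of 3.32, of which 6 and 5 were matched. Most of the matched ones lay in a stretch of 0.546 Mb on chromosome 16, from 34433115 to 34978721. Every peak there was matched, with a −log10 q of 17.9 to 91.3, so the 1 Mb rule left out some strong shared peaks.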

How the data were processed

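The authors deposited 1 list of broad peaks per library, called per library and not pooled. The build is GRCh38 and the tools named are MACS2, Bowtie2 2.2.9, Picard 1.101, SAMtools 1.9, ChIPseeker 1.22.1 and CASAVA 1.8.2, per the submitters' processing notes. How duplicate and multi-mapping reads were handled, which bears most on repeats, is not given in the sources used here, nor are the peak calling options and any Tn5 shift. Each deposited peak carries a fold enrichment (a ratio to the library's local background), a −log10 p and a −log10 q. The deposited score was not used.

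Gene-free stretches were taken between neighbouring genes of a RefSeq table (GRCh38.p14, 59792 genes). It lists contig genes under their chromosome with contig positions, so a stretch near a chromosome start can be cut short. Coordinates are 1-based. Peaks were matched by an overlap of at least 1 bp. Named peaks were the 10 matched ones with the highest control fold, the 5 unmatched ones per library with the highest −log10 q, those just inside the 1 Mb limit and those within 100 kb of a ribosomal RNA gene. Named places had at least 5 peaks in a list, or at least 2 in one list and none in the other. One such place is not reported here. Further peaks were named after their values were seen. The members, rules and lists were chosen with earlier results of these data known. Alternatives were a −log10 q filter, equal list lengths, other stretch lengths, leaving out parts of the set, merging within 500 bp and other overlap rules. Tested on simulated data, the selection recovered 200 of 200 planted members. These were planted in the same stretches and under contig names, so the check covers the code and not the choice of stretches. Software was scipy 1.17.1, pandas 2.3.3, matplotlib 3.10.9 and numpy 2.4.6 under Python 3.11.15.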

Additional observations from a re-analysis of the deposited data

How the results depend on the processing

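The ratio of knockdown to control peaks of the set stayed above 1 under all 8 alternatives run for it, from 1.20 to 1.44. The ratio for all peaks of the 2 uncut lists was itself 1.20, and lists cut to equal length have equal counts by construction. The interval reached below 1 with the −log10 q filter (0.840), equal list lengths (0.983), without gene-free stretches (0.902) and without the chromosome 17 stretch (0.955). Filtering both lists at a −log10 q of 5 moved most other values: the set rose to 31.9% of the control list and 30.5% of the knockdown list, its matched share to 93.4% and 75.3%, its median fold to 5.41 and 5.33, and its median width to 1468 bp and 1155 bp. Requiring an overlap of 50% of both peaks lowered the matched share to 66.4% of control and 48.7% of knockdown peaks, while allowing a distance of 1 kb left it at 82.9% and 59.2%. With the filter and with the 50% rule, the matched share was computed for the set alone. Without filtering the other list, 60 of 61 control and 67 of 73 knockdown peaks of the set with a −log10 q of at least 5 were matched. Elsewhere it was 125 of 130 control and 156 of 166 knockdown peaks. The share of each list moved by construction where parts of the set were left out: to 3.88% and 4.63% without contigs, to 3.08% and 3.27% without gene-free stretches, and to 5.42% and 5.58% without the chromosome 17 stretch. Without gene-free stretches the median fold of the knockdown set was 3.73. Of 74 recomputed values, the 17 given above for shares, fold and width moved, and none reversed its direction. The single library per group and the unknown read depth limit all comparisons. No paired analysis was possible because each group has 1 library.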
